A study of Mus musculus with 22 samples.

Results

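The H3K4me3 and H3K27ac peaks of G1E-ER4 (G1ER) cells after 24 h of β-estradiol were compared region by region. The 2 H3K4me3 and the 2 H3K27ac lists at 24 h were merged where peaks touched, which gave 21133 regions. A mark was taken as present where both of its replicates had a peak, and 17488 regions then carried a class. In all, 10288 regions (48.7%) had both marks, 1948 (9.22%) had H3K4me3 only, 5252 (24.9%) had H3K27ac only, and 3645 (17.2%) had neither mark in both replicates. The union of all 20 histone lists of the series held 26357 regions.

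G1E cells are a mouse erythroid progenitor line that lacks Gata1, and G1E-ER4 is a single clone of them that carries a fusion of GATA1 with the hormone-binding part of the estrogen receptor. Both marks, and both ends of the time course, therefore share the Gata1-null background and the fusion protein, and β-estradiol switches that protein on. The series held 22 ChIP-seq peak lists, 10 groups of 2 histone lists (5 times of estradiol from 0 to 24 h) and a CTCF list at each end. The replicates are numbered, but nothing in the labels ties them to separate cultures, so the p-values below measure the spread between lists, which may be technical. The lists give positions and a score per peak without read counts, so the depth behind a peak, or behind a missing peak, is unknown. ChIP-seq of a population cannot tell apart a region that carries both marks in the same cells from a region that carries each in different cells.

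H3K4me3 (trimethylated lysine 4 of histone H3) marks the start sites of active and poised genes and is written by SET1/MLL complexes. H3K27ac (acetylated lysine 27) is written by the acetyltransferases CBP and p300 and is found at active promoters and active enhancers. A region with H3K27ac and without H3K4me3 is commonly read as a candidate enhancer. In erythroid cells the enhancers are known to be rich in the GATA motif, the recognition sequence of GATA1 and GATA2.

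The sequences of a few regions are shown as examples of what each class holds. They are the central 300 bp (GRCm38, plus strand, 5′ to 3′, from the RefSeq assembly) of the leading regions of each class under the naming rule. CG dinucleotides are in capitals in the windows with H3K4me3, and GATA motifs (AGATAA on either strand, with T allowed as the first letter and G as the last) are in capitals in the windows with H3K27ac only.
Hist1h2af/Hist1h3g/Hist1h4h, both marks, chr13:23533308-23533607: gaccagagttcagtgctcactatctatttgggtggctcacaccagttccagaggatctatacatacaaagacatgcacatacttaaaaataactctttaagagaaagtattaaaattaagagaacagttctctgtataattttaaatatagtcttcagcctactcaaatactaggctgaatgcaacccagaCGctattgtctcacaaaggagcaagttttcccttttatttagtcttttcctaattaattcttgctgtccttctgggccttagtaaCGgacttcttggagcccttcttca
Fam78a, both marks, chr2:32081508-32081807: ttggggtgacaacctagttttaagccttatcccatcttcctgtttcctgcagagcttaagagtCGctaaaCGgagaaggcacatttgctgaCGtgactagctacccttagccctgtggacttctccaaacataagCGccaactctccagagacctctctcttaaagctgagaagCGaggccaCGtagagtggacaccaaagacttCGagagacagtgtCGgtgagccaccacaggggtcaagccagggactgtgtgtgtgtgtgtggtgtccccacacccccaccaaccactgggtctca
Sfi1, H3K4me3 only, chr11:3192615-3192914: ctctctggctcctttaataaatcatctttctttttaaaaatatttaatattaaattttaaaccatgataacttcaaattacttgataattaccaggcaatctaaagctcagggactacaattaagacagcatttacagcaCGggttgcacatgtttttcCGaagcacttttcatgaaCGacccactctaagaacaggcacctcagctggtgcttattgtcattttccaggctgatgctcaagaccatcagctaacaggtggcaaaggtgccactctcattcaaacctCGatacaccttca
region near 9030025P20Rik, H3K4me3 only, chr17:14992082-14992381: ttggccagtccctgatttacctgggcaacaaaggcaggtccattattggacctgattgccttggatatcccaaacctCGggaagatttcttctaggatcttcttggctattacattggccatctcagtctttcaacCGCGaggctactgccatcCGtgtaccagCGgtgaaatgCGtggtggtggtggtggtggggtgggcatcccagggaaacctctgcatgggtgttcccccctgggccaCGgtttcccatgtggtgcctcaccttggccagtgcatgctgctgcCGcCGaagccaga
Cit intron, H3K27ac only, chr5:115919329-115919628: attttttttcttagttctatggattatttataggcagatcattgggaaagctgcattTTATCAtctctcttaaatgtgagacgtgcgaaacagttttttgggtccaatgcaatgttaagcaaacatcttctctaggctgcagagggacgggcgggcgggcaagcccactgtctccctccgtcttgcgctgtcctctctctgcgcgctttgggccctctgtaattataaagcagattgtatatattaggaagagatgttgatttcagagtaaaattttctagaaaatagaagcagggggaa
region near Gm44178, H3K27ac only, chr6:88915274-88915573: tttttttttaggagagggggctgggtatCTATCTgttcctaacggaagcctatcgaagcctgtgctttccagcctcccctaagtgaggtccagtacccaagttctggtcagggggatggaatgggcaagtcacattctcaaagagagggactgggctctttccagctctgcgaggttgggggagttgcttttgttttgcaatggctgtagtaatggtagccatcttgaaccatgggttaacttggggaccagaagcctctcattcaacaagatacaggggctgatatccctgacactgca
The histone gene window held 2 CG dinucleotides and the Fam78a window held 8. The Sfi1 window held 4 and the window near 9030025P20Rik held 9. Each of the H3K27ac-only windows held 1 GATA motif, in the Cit intron as TTATCA and near Gm44178 as CTATCT, both read on the minus strand. The motif was not particular to that class among these windows, since the Sfi1 window held 2 and the histone gene window 1, where they are not in capitals. The Cit window also held 9 CG dinucleotides, against 3 in the window near Gm44178. The CpG observed/expected ratio was 0.192 in the histone gene window, 0.376 in the Fam78a window, and 0.670 in the Cit window, so these leading regions do not follow the class medians given below (0.684 with both marks and 0.190 with H3K27ac only).

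The lists of the same mark were close to each other. The H3K4me3 lists held 12925 and 13071 peaks over 30.5 and 30.8 Mb, and the H3K27ac lists held 17724 and 17247 peaks over 46.5 and 43.9 Mb. The stretch covered by both H3K4me3 replicates was 28.4 Mb, and that covered by both H3K27ac replicates was 38.4 Mb. They shared 22.1 Mb, which is 77.9% of the H3K4me3 length and 57.4% of the H3K27ac length. H3K4me3 was thus mostly contained in H3K27ac, and 16.4 Mb of H3K27ac lay outside H3K4me3.

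A limit of the lists bears on every region called without a mark. No peak in any of the 22 lists was longer than 9200 bp, and the longest peak of each histone list lay between 8769 and 9200 bp. Long peaks were often missing from the other replicate. Of H3K27ac replicate 1 peaks of 3 to 4 kb, 98.7% (95% Wilson interval 98.1 to 99.0%) overlapped a replicate 2 peak, against 73.5% (64.2 to 81.1%) of those of 8 kb or more. For H3K27ac replicate 2 the shares were 98.0% (97.4 to 98.5%) and 58.2% (47.2 to 68.5%). For H3K4me3 they were 99.8% (99.5 to 99.9%) and 89.7% (73.6 to 96.4%) in replicate 1, and 99.9% (99.6 to 99.9%) and 83.9% (67.4 to 92.9%) in replicate 2. Short peaks were also less often shared, with 54.5 to 77.1% of peaks under 1 kb found in the other replicate. A missing peak at a long domain is therefore not a measurement of an absent mark, and the part that peak length plays in each class was not tested beyond the values given here.

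**Figure D1:**
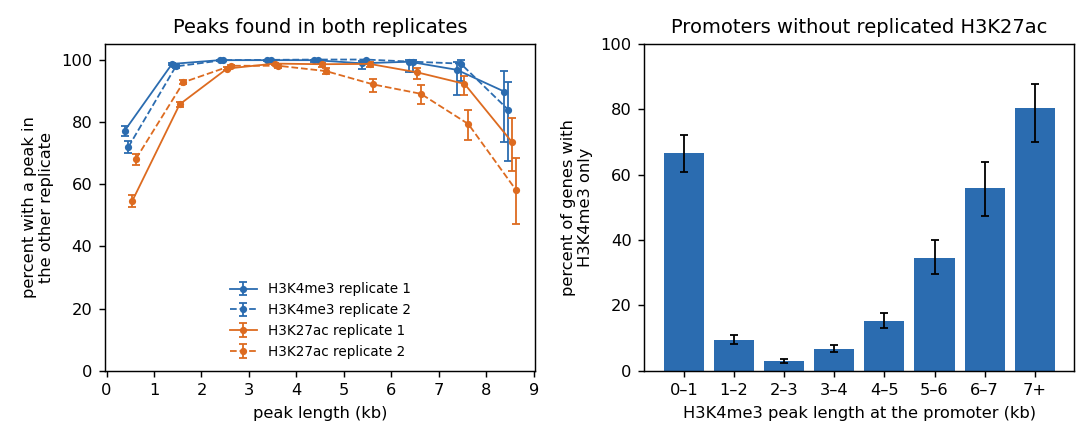
Left, percent of the peaks of each 24 h list that overlap a peak of the other replicate of the same mark, by peak length in kb (points, with 95% Wilson intervals; the last bin is 8 kb or more). Right, percent of genes with H3K4me3 in both replicates at the promoter that lacked H3K27ac in both replicates, by the length of the shorter of the replicates' H3K4me3 peaks there (bars, with 95% Wilson intervals). Sharing between replicates falls at both ends, to 58.2% for the longest H3K27ac peaks, and the percent of promoters with H3K4me3 only is lowest at 2 to 3 kb (115 of 3827) and highest at 7 kb or more (80.3%).

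The classes lay in different parts of the genome. Of the regions with both marks, 7895 (76.7%, 75.9 to 77.5%) held the start site (TSS) of a protein-coding gene, 5.48% had their midpoint in an intron, and 10.8% lay between genes. Of the H3K4me3-only regions, 984 (50.5%, 48.3 to 52.7%) held a protein-coding TSS and a further 10.8% a TSS of another transcript. Of the H3K27ac-only regions, 176 (3.35%, 2.90 to 3.87%) held a protein-coding TSS, whereas 2577 (49.1%) were intronic and 1866 (35.5%) intergenic. A further 7.79% of them held a TSS of another transcript, and 84.6% lay more than 5 kb from any protein-coding TSS. The intervals cover counting error only, and neighbouring regions are not independent. The class sizes hung on the scores, which were higher for H3K4me3 (medians of 851 and 842) than for H3K27ac (244 and 238). When peaks that scored below the median of the pooled lists were left out, 5480 regions had both marks, 3178 had H3K4me3 only, and 349 had H3K27ac only, with a protein-coding TSS in 93.4%, 88.0%, and 9.74%.

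**Figure D2:**
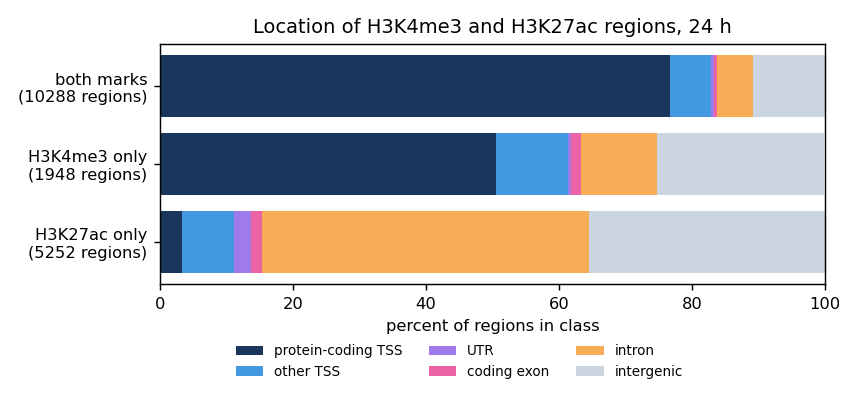
Percent of regions of each class (x axis) in each annotation category, GENCODE M21, with a region counted under the TSS it holds and otherwise by its midpoint. A protein-coding TSS lies in 76.7% of regions with both marks, in 50.5% with H3K4me3 only, and in 3.35% with H3K27ac only.

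The same contrast held between the lists themselves, without any classes. A protein-coding TSS lay in 69.1% and 68.4% of the peaks of the H3K4me3 lists at 24 h and in 46.1% and 47.8% of those of the H3K27ac lists. The median CpG observed/expected ratio of the central 300 bp of the peaks was 0.624 and 0.615 for H3K4me3 and 0.362 and 0.379 for H3K27ac, and a GATA motif was present in 25.1% and 25.8% against 38.9% and 37.6%. The lists of the marks did not overlap in any of these 3 measures. With 2 lists per mark, the exact permutation test of 24 h alone, taken on both sides, cannot give p under 0.333, so the marks were compared over the 20 histone lists, with the labels exchanged within each time point. The difference (H3K27ac minus H3K4me3) over all times was -20.4 percentage points for the TSS share, -0.245 for the CpG ratio, and 11.5 percentage points for the GATA share. Each had p = 0.000257 by the exact permutation test, the smallest it can give (adjusted p = 0.000343 over 4 measures), with the same sign at 5 of 5 time points. The median peak length differed by 26.5 bp at 24 h (2228 and 2220 bp for H3K4me3, 2280 and 2221 bp for H3K27ac, less than the spread of the H3K27ac lists) and by 52.8 bp over all times (exact permutation adjusted p = 0.00129). When peaks that scored below the median of the pooled lists were dropped, the CpG difference changed sign, to 0.0121 (exact permutation adjusted p = 0.0296), and the TSS difference shrank to -4.35 percentage points.

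The sequence under the regions followed the classes. The median CpG observed/expected ratio was 0.684 in regions with both marks, 0.523 with H3K4me3 only, and 0.190 with H3K27ac only, and the median GC content was 58.7%, 52.0%, and 46.5%. Windows with a ratio over 0.6 and GC over 50%, as in CpG islands, made up 54.0%, 33.2%, and 0.590% of the classes. The ETS motif (CCGGAAG), common in promoters, was found in 10.1%, 4.57%, and 1.35%, against 6.00% of all 21133 windows of the same length. The AP-1 motif (TGANTCA) went the other way, with 4.56%, 7.85%, and 11.2% against 7.63%. The KLF motif (CCACACCC) was found in 2.62%, 2.26%, and 3.83% and the E-box (CACGTG) in 6.97%, 7.29%, and 4.74%, against 2.97% and 6.17% of all windows. Motifs were searched on both strands, and a match is a description of the letters, not of binding.

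The GATA motif was more frequent in the H3K27ac-only regions than in the other classes. It was present in 58.0% (56.6 to 59.3%) of them, in 29.1% (27.1 to 31.1%) of H3K4me3-only regions, and in 2264 of 10288 regions with both marks (21.2 to 22.8%), against 36.8% of all windows. It was nearly as frequent in the 3645 regions with neither mark in both replicates (52.0%, 50.4 to 53.7%). Of those, 2817 had a peak in 1 H3K27ac list and in no H3K4me3 list. The same order of the classes, with smaller differences, was seen for the same motifs with their letters reversed. These were found in 35.9%, 22.6%, and 18.2% of the classes, and in 25.8% of all windows. The reversed letters have the same base composition, but GATAGA and GATAGT among them still hold the letters GATA and can overlap a motif. They therefore do not show what base composition alone would give. Among regions without any TSS, the GATA motif was found in 58.3% of H3K27ac-only regions, 39.1% of regions with both marks, and 35.5% of H3K4me3-only regions, where the reversed letters were found in 36.1%, 26.6%, and 24.7%. Over all regions without any TSS the shares were 52.0% and 33.5%. In those of them with neither mark in both replicates they were 53.7% and 35.4%. The share of H3K27ac-only regions with the GATA motif changed little with peak strength. It was 55.9% (54.0 to 57.8%) in H3K27ac-only regions whose lower score percentile of the replicates was under 25, 60.6% (58.5 to 62.7%) at percentiles of 25 to 50, and 57.6% (53.5 to 61.6%) at 50 to 75.

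CTCF, which binds insulators and many promoters, was mapped in 1 list per time point. A CTCF peak at 24 h overlapped 42.6% (41.6 to 43.6%) of regions with both marks, 36.7% (34.5 to 38.8%) with H3K4me3 only, and 22.2% (21.1 to 23.4%) with H3K27ac only. At 0 h the shares over the same regions were 34.4%, 31.3%, and 17.8%. With 1 list each, the times were not tested against each other. Any overlap with the whole region was counted, so a longer region has more room for a CTCF peak. The part of region length in these shares was not tested.

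The 5 regions with the longest stretch under all 4 lists were promoters. The longest lay over the replication-dependent histone genes Hist1h2af, Hist1h3g, and Hist1h4h at chr13:23529466-23537624, where H3K4me3 covered 7606 and 7993 bp and H3K27ac 7822 and 7827 bp. The next was Fam78a at chr2:32077619-32086239, with 7681 and 7700 bp of H3K4me3 and 8621 and 8296 bp of H3K27ac. Tsc22d2 at chr3:58413506-58421173, Tgif1, a homeobox corepressor, at chr17:70847225-70854949, and Arid2, a subunit of the PBAF remodeling complex, at chr15:96283172-96291111 followed, with common stretches of 7486, 7116, and 6945 bp. All 5 had a peak in each of the 16 earlier histone lists, 8 per mark, and a CTCF peak at 24 h. The log2 difference in covered length was between 0.00 and 0.13, which the choice of regions by their common stretch keeps small.

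Where both marks were present, H3K27ac more often reached further. In the 10288 regions with both marks, limma on log2(covered bp + 200) called 2301 regions (22.4%) with a longer stretch of H3K27ac and 491 (4.77%) with a longer stretch of H3K4me3 at an adjusted p under 0.05. The median log2 difference over all regions was 0.08. The regions with longer H3K27ac had medians of 2232 and 2260 bp under H3K4me3 and 4176 and 3995 bp under H3K27ac, and those with longer H3K4me3 had 2168 and 2188 bp under H3K4me3 and 1433 and 1394 bp under H3K27ac. When each list was centred on its own median, the counts became 1814 and 1296, so that H3K27ac was the longer mark in 58.3% of the called regions instead of 82.4%. The numbers of calls also hung on single lists. Without H3K4me3 replicate 1 they were 1018 and 38, without H3K4me3 replicate 2 they were 1107 and 40, and without H3K27ac replicate 1 they were 2549 and 956.

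Longer H3K27ac was more frequent away from start sites. H3K27ac was the longer mark in 828 of 1751 regions without any TSS (47.3%) and in 1280 of 7895 regions with a protein-coding TSS (16.2%), where H3K4me3 was the longer in 3.54% and 5.18%. Of the regions with longer H3K4me3, 83.3% (79.7 to 86.3%) held a protein-coding TSS and 360 of 491 were CpG-rich by the cutoffs above. Of those with longer H3K27ac, 55.6% (53.6 to 57.6%) held a protein-coding TSS and 622 of 2301 were CpG-rich. A GATA motif was in the central window of 14.7% (11.8 to 18.1%) of the former and 34.9% (33.0 to 36.9%) of the latter. Among the 7496 regions not called, 82.8% (81.9 to 83.6%) held a protein-coding TSS, 4569 were CpG-rich, and 18.5% (17.7 to 19.4%) had a GATA motif. The TSS share with longer H3K4me3 was thus near that of the regions not called.

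The widest H3K27ac excess was found away from start sites. At chr1:133822325-133827881, 1647 bp from the TSS of Gm10537, H3K4me3 covered 483 and 461 bp and H3K27ac 5557 and 4860 bp (log2 difference 3.01 ± 0.11 (SE), limma adjusted p = 0.000471). At chr16:91437525-91444942, 13479 bp from Gm46562, the values were 756 and 622 bp against 7061 and 6779 bp (3.01 ± 0.11). The regions near Tbc1d31, Gm32633, and Ak7 followed, with log2 differences of 2.88, 2.84, and 2.80. None of these 5 held a TSS, and in each the H3K4me3 peaks were short. At the Gm10537 region no base lay under all 4 lists, and its H3K4me3 scores were at percentiles 2.13 and 1.59 of their lists, and at Ak7 the stretch under all 4 lists was 54 bp. The call near Tbc1d31 was lost in the fit to all 20 histone lists (limma adjusted p = 0.231).

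The widest H3K4me3 excess was at Bcorl1 (chrX:48341044-48346174), a gene for a transcriptional corepressor, where H3K4me3 covered 5079 and 4793 bp and H3K27ac 1164 and 876 bp (log2 difference -2.08 ± 0.14, limma adjusted p = 0.000822). A region at chr13:21158765-21162141 among olfactory receptor genes, nearest to Olfr1368, had 2939 and 3377 bp against 989 and 442 bp (-1.94 ± 0.30, limma adjusted p = 0.00817). This call was lost without H3K4me3 replicate 1 (limma adjusted p = 0.0800) and without H3K4me3 replicate 2 (limma adjusted p = 0.0941). BC107364 (chr3:96449487-96453031) had 3545 and 3153 bp against 1012 and 784 bp (-1.70 ± 0.14). The regions near Gm44456 and Gm15707 had log2 differences of -1.59 and -1.55, and the call near Gm44456 was lost in the fit to all 20 histone lists (limma adjusted p = 0.170).

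At promoters the marks differed in shape. Of protein-coding genes with 1 TSS taken per gene, 8279 had that TSS under a peak in all 4 lists. The H3K4me3 peak reached a median of 978 and 984 bp upstream and 1609 and 1614 bp downstream. The H3K27ac peak reached 1130 and 1083 bp upstream and 1615 and 1532 bp downstream. H3K4me3 was the more lopsided, reaching further into the gene than away from it at 81.5% and 81.4% of TSS, against 72.9% and 73.1% for H3K27ac. The lists of the marks did not overlap in the median upstream reach or in this share, but did in the median downstream reach. The downstream reach was more spread for H3K27ac. Its upper quartile was 2367 and 2246 bp, against 2094 and 2100 bp for H3K4me3, and its lower quartile 1183 and 1135 bp, against 1286 and 1292 bp. The exact permutation test of 2 lists against 2 cannot pass the threshold.

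**Figure D3:**
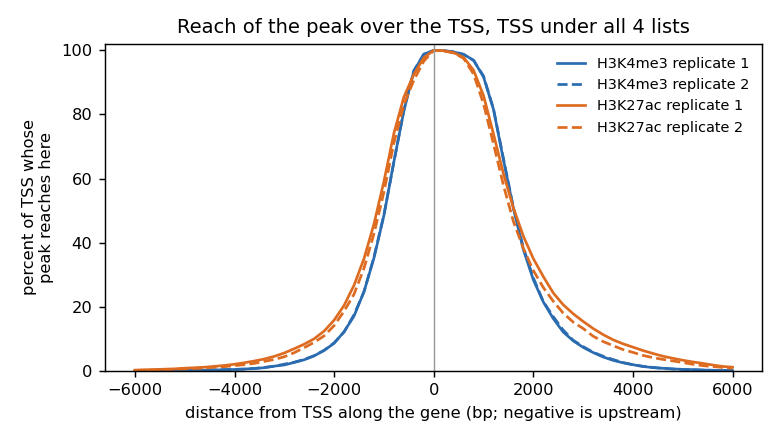
Percent of the 8279 TSS under all 4 lists whose peak reaches each distance (x axis, bp, along the direction of the gene), by list (blue, H3K4me3; orange, H3K27ac; solid, replicate 1; dashed, replicate 2). H3K27ac lies outside H3K4me3 upstream, with median reaches of 1083 to 1130 bp against 978 to 984 bp, and both marks reach further downstream. Downstream the curves cross. At 1000 bp H3K4me3 is the higher (91.7% and 92.0% against 85.9% and 83.3%), and at 3000 bp H3K27ac is (15.4% and 13.2% against 7.31% and 7.55%).

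The H3K4me3-only regions differed in location with their length. The 1165 regions under 2 kb had low scores, with median H3K4me3 percentiles of 14.2 and 15.0 in their lists, and lay mostly away from start sites. A protein-coding TSS lay in 29.9% (27.3 to 32.6%) of them, and their median length was 969 bp. The 253 regions of 2 to 4 kb lay between, with a protein-coding TSS in 66.8% (60.8 to 72.3%) and percentiles of 30.6 and 31.8. The 530 regions of 4 kb or more held a protein-coding TSS in 88.1% (85.1 to 90.6%), overlapped a CTCF peak in 58.3% (54.1 to 62.4%), and had median H3K4me3 score percentiles of 40.0 and 40.7 in their lists. Over the whole class the score percentiles were 20.5 and 21.4, against 59.1 and 59.7 for regions with both marks. Without the regions of 4 kb or more, 36.5% of H3K4me3-only regions held a protein-coding TSS.

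The long H3K4me3-only regions often had H3K27ac earlier in the time course. Of the 530, 343 (64.7%) had an H3K27ac peak in at least 1 of the 8 earlier lists, and the median length of the longest such peak was 7435 bp. It was 6 kb or more in 273 (79.6%) of these. The same measure had a median of 2958 bp in regions with both marks, with 9.24% at 6 kb or more, and a median of 787 bp in the H3K4me3-only regions under 2 kb, with 3.22%. These sets differ in region length by choice. In the 2847 regions with both marks that were also 4 kb or more, the median was 5197 bp, with 32.5% at 6 kb or more. At 24 h itself, 289 of the 530 had no H3K27ac peak inside in either replicate, and 57 of these (19.7%) had one within 5 kb.

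By gene, the share with H3K4me3 only was lowest at middling peak lengths. Of genes with H3K4me3 in both replicates within 1 kb of the TSS, H3K27ac was not replicated in 174 of 261 (66.7%, 60.7 to 72.1%) where the shorter of the replicates' H3K4me3 peaks was under 1 kb. It was not replicated in 115 of 3827 (2.51 to 3.59%) at 2 to 3 kb, in 131 of 857 (15.3%) at 4 to 5 kb, and in 61 of 76 (80.3%, 70.0 to 87.7%) at 7 kb or more. Counting only promoters with no H3K27ac peak in either list gave 52.5%, 1.67%, 9.57%, and 59.2%.

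The highest-scoring H3K4me3-only regions without H3K27ac in either list included 4 promoters. Sfi1, a centrosome gene, had scores of 2661 and 1838 over 4064 and 4710 bp at chr11:3190698-3195477. A region at chr17:14990055-14994555, 10556 bp from the TSS of 9030025P20Rik, had scores of 1907 and 1694. Agfg1 (chr1:82838477-82841906), a gene of vesicle trafficking, had 1700 and 1735 over 3344 and 3280 bp. Ankrd9 (chr12:110977004-110980042) had 1688 and 1973 and Crebrf (chr17:26714811-26717751), a regulator of CREB3, had 1480 and 1520. At 0 h, H3K27ac was listed in both replicates at the region near 9030025P20Rik and at Ankrd9 and in neither at Sfi1, Agfg1, and Crebrf. No list of artefact-prone regions was applied.

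The erythroid genes showed both kinds of state. The lists of globin, heme, iron, membrane, and transcription factor genes matched 84 genes, of which 43 had both marks within 1 kb of the TSS, 23 had H3K4me3 only, and none had H3K27ac only. Of all 21866 protein-coding genes, 8555 (39.1%) had both marks, 997 (4.56%) H3K4me3 only, and 146 (0.668%) H3K27ac only. The erythroid H3K4me3-only genes had long peaks: 17 of the 23 had an H3K4me3 peak of 4 kb or more in both replicates, against 377 of the 997 over all genes. In 20 of the 23 no H3K27ac peak was listed in either replicate, and 9 had an H3K27ac peak in an earlier list, 6 kb or longer in 7. These counts stand beside the loss of long H3K27ac peaks between replicates given above, and its part in them was not tested.

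**Figure D4:**
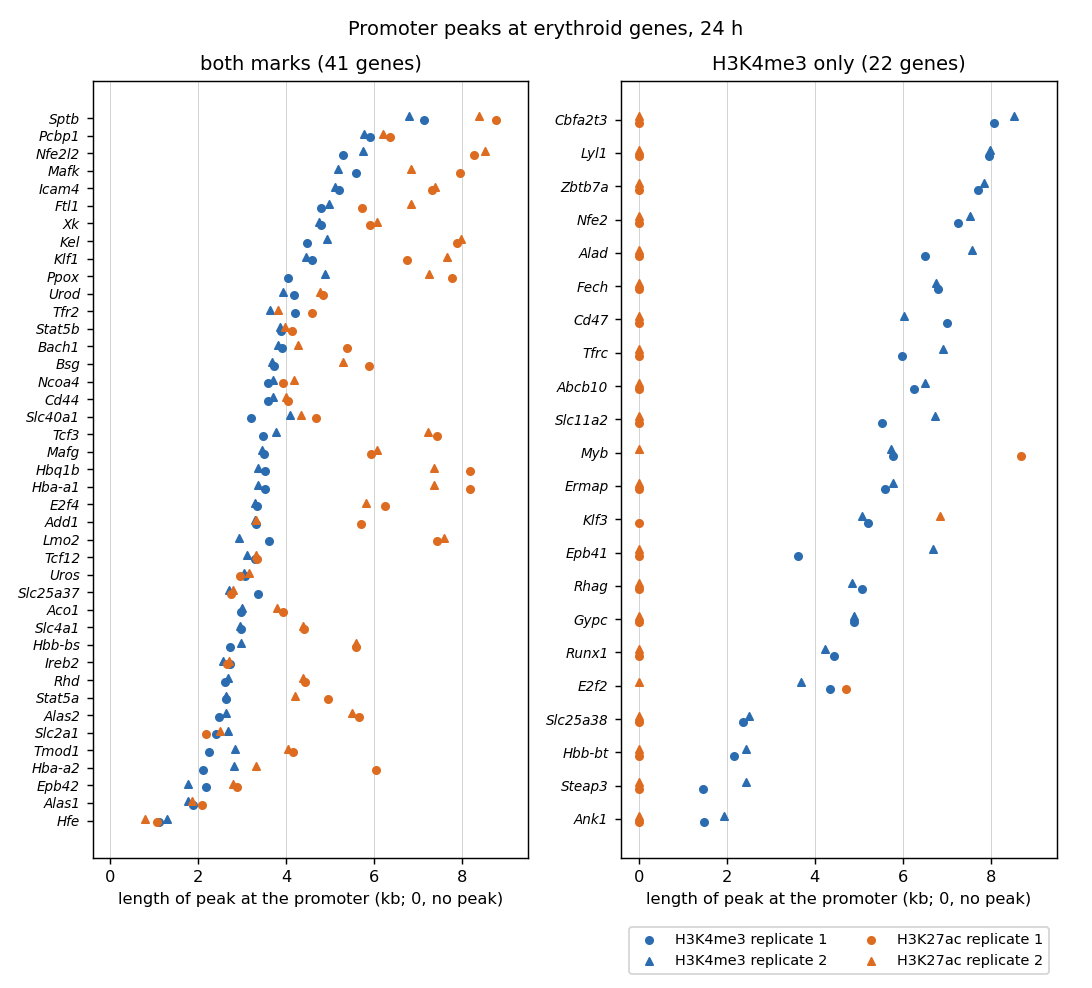
Length in kb of the peak within 1 kb of the TSS in each 24 h list (blue, H3K4me3; orange, H3K27ac; circles, replicate 1; triangles, replicate 2; 0 stands for no peak) for 41 of the erythroid-list genes with both marks (left) and 22 of those with H3K4me3 only (right). On the left, H3K27ac peaks are mostly the longer, and on the right most H3K4me3 peaks exceed 4 kb and most H3K27ac values are at 0.

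Among the globin genes, H3K27ac reached beyond H3K4me3 at Hba-a1 and Hbb-bs. At Hba-a1, an adult α-globin gene, H3K4me3 peaks were 3513 and 3349 bp long and H3K27ac peaks 8183 and 7350 bp (log2 difference 1.13 ± 0.08, limma adjusted p = 0.00103). The same region holds Hbq1b. At Hbb-bs, an adult β-globin gene, they were 2717 and 2968 bp against 5583 and 5574 bp (0.93 ± 0.08, limma adjusted p = 0.00132). In both genes every H3K27ac peak was longer than every H3K4me3 peak. This is not particular to them. The covered lengths of the marks were separate in the same direction in all 2301 regions called with longer H3K27ac. Among the regions not called, they were separate in 56.7%, with either mark the longer. At Hba-a2 the lengths were 2104 and 2802 bp against 6033 and 3317 bp, which did not pass the test (0.83 ± 0.29, limma adjusted p = 0.0915). Hbb-bt, the other adult β-globin gene, had H3K4me3 peaks of 2167 and 2434 bp and no H3K27ac peak in any of the 10 H3K27ac lists. The embryonic genes Hba-x, Hbb-bh1, and Hbb-y and the gene Hbq1a had no peak of either mark within 1 kb of the TSS in any list. The globin genes include near-identical copies, such as the adult pairs, and only uniquely mapped reads were kept. Absent or short peaks at such copies are therefore uncertain.

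The genes of heme synthesis were divided between both marks and H3K4me3 alone. At Alas2, the erythroid enzyme that starts the pathway, H3K4me3 peaks were 2466 and 2627 bp and H3K27ac peaks 5651 and 5495 bp (1.07 ± 0.07, limma adjusted p = 0.000914). H3K27ac was in none of the 0 h lists at Alas2, whereas H3K4me3 was in both. Ppox also had longer H3K27ac (4031 and 4878 bp against 7767 and 7248 bp, 0.73 ± 0.11, limma adjusted p = 0.00758). Alas1, Uros, Urod, and the mitochondrial iron importer Slc25a37 had both marks and did not pass the test. Alad had 6499 and 7568 bp of H3K4me3 without H3K27ac at 24 h, and H3K27ac in both lists at 0 h. Fech, which inserts iron into the ring, had 6802 and 6769 bp of H3K4me3 and no H3K27ac peak in any list. Slc25a38 likewise had no H3K27ac peak in any list, with 2382 and 2498 bp of H3K4me3. Abcb10 had 6259 and 6505 bp of H3K4me3 without H3K27ac at 24 h, and H3K27ac in both lists at 0 h, up to 7054 bp long. At Cpox no peak was listed at 24 h, whereas 6 of 8 earlier H3K4me3 lists had a peak there, up to 8791 bp long.

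Most genes of iron handling had both marks. Of 12 genes, 8 had both marks, and 1 of these, Aco1, passed the test, with longer H3K27ac (2969 and 2990 bp against 3931 and 3797 bp, 0.35 ± 0.07, limma adjusted p = 0.0208). That is 12.5% of the 8, near the 15.4% of all protein-coding genes in regions with both marks. Tfrc, the transferrin receptor, had H3K4me3 peaks of 5994 and 6907 bp and no H3K27ac peak at 24 h. Slc11a2, a ferrous iron transporter, had 5538 and 6732 bp, and Steap3, a ferrireductase, 1459 and 2448 bp. Fth1, the ferritin heavy chain, had a peak of each mark in replicate 2 alone, 4319 bp of H3K4me3 and 6857 bp of H3K27ac.

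The red cell membrane genes more often had the longer H3K27ac. Of 24 genes, 13 had both marks and 7 H3K4me3 only. H3K27ac was the longer mark in 10 of the 13 by limma (76.9%), against 15.4% of all protein-coding genes in regions with both marks. Slc4a1, the anion exchanger band 3, had 2970 and 2956 bp of H3K4me3 and 4406 and 4383 bp of H3K27ac (0.54 ± 0.07, limma adjusted p = 0.00498). Kel had 4481 and 4924 bp against 7880 and 7974 bp (0.73 ± 0.08, limma adjusted p = 0.00253). The spectrin gene Sptb (0.29 ± 0.07) also passed, and H3K27ac at Sptb reached 8766 bp, near the longest length in the lists. The H3K4me3-only genes included Cd47 (7001 and 6040 bp), Ermap, Rhag, Gypc, Epb41, and the ankyrin gene Ank1 (1491 and 1940 bp). Add2, Dmtn, Aqp1, and Slc14a1 had no peak in any list at the TSS used here.

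The erythroid transcription factor genes held some of the longest peaks. Of 27 genes, 11 had both marks, and in 8 of these (72.7%) H3K27ac was the longer, against 15.4% of all protein-coding genes in regions with both marks. Klf1, the erythroid Krüppel-like factor, had 4585 and 4457 bp of H3K4me3 and 6739 and 7656 bp of H3K27ac (0.65 ± 0.09, limma adjusted p = 0.00553). Lmo2, an adaptor of the GATA1 complex, had 3602 and 2935 bp against 7419 and 7577 bp (1.16 ± 0.11, limma adjusted p = 0.00176). In both genes each H3K27ac peak was longer than each H3K4me3 peak, as were the covered lengths in all 2301 regions called with longer H3K27ac. Nfe2 (7253 and 7533 bp), Lyl1 (7971 and 7978 bp), Cbfa2t3 (8079 and 8524 bp), and Zbtb7a (7709 and 7842 bp) had H3K4me3 peaks among the longest of the lists and no H3K27ac peak at 24 h. Klf3, Myb, and E2f2 had H3K27ac in 1 replicate, of 6846, 8679, and 4723 bp. Gfi1b had an H3K4me3 peak of 8617 bp in replicate 2 alone and Ldb1 one of 5282 bp in replicate 1 alone. Zfpm1 and Foxo3 had no peak at 24 h and H3K4me3 peaks of up to 7924 and 9040 bp earlier. Gata1, which the line lacks, and Tal1, Bcl11a, and Sox6 had no peak in any of the 20 histone lists at the TSS used.

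Over the erythroid lists, 24 of 43 genes in regions with both marks (55.8%) had longer H3K27ac and none had longer H3K4me3, with a median log2 difference of 0.44. Over all 8515 protein-coding genes in such regions, 15.4% had longer H3K27ac and 4.97% longer H3K4me3, with a median of 0.04. The share was 76.9% for membrane genes, 72.7% for the transcription factors, 28.6% for heme synthesis, and 12.5% for iron handling, so the difference was not shared evenly by the erythroid lists.

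Of the 9 erythroid markers, 4 (Klf1, Hba-a1, Alas2, and Slc4a1) had both marks, 3 (Epor, Hbb-bt, and Tfrc) had H3K4me3 only, Gfi1b had H3K4me3 in 1 replicate, and Tal1 had no peak. Of the 13 markers of T and B cells, liver, neurons, and muscle, 10 had no peak in any of the 4 lists. The other 3 had short peaks: Syp had both marks (391 to 706 bp), Tubb3 H3K4me3 only (922 and 903 bp), and Des H3K27ac only (1531 and 1524 bp).

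Of 24 progenitor and mast cell genes, 14 were in no list, against 11963 of all 21866 genes, a like share. Kit, the receptor of stem cell factor, had H3K4me3 peaks of 8667 and 8514 bp and no H3K27ac peak at the promoter in any list, and Csf2rb, the common β chain of cytokine receptors, had 8715 and 8728 bp likewise. Spi1, Rgs1, and Rgs13 had both marks. Rgs13 had 912 and 1270 bp of H3K4me3 against 5075 and 4213 bp of H3K27ac (1.92 ± 0.17, limma adjusted p = 0.00149), and Spi1 had 3020 and 3323 bp against 4006 and 3906 bp (0.30 ± 0.08, limma adjusted p = 0.0467). Hdc and Gpr65 had H3K27ac only. At Gpr65 both H3K4me3 lists had a peak at 0 h and neither at 24 h.

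Immediate early genes went both ways. Of 21, 15 had both marks, with longer H3K27ac at 4 (Jund, Ier3, Klf10, and Dusp1) and longer H3K4me3 at 4 (Fos, Fosl2, Egr2, and Klf2). Each is 26.7% of the 15, against 15.4% and 4.97% of all protein-coding genes in regions with both marks. At Fos H3K4me3 covered 2286 and 3514 bp and H3K27ac 1543 and 1565 bp (-0.79 ± 0.20, limma adjusted p = 0.0379), and at Dusp1 3162 and 3321 bp and 10706 and 8957 bp (1.54 ± 0.10, limma adjusted p = 0.000875), the latter in more than 1 peak. Junb had H3K4me3 peaks of 6874 and 7058 bp and no H3K27ac peak in any list. Of 79 ribosomal protein genes, 67 had both marks, 9 H3K4me3 only, and none H3K27ac only. H3K27ac was the longer mark at 22 of the 67 (32.8%) and H3K4me3 at 2 (Rpl9 and Rpl23), so longer H3K27ac was more frequent here too than over all genes. Of 50 developmental transcription factors, 47 had neither mark and 3 had both, among them Foxa1 and Dlx1. Of 1134 olfactory receptor genes, 1130 had neither mark in both replicates.

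The promoters that the study targeted with its capture guides matched 41 genes, of which 24 had both marks, 6 H3K4me3 only, and 2 (Clec10a and Gpr65) H3K27ac only. H3K27ac was the longer mark at 13 of the 24 (54.2%), against 15.4% of all protein-coding genes in regions with both marks. H3K4me3 was the longer at Etv5 (2995 and 2815 bp against 2246 and 1704 bp, -0.52 ± 0.14, limma adjusted p = 0.0454). The study chose these genes, so their states are not independent evidence. At Slc38a5, an amino acid transporter gene, neither mark was listed at 0 h, and at 24 h H3K4me3 covered 1296 and 1021 bp and H3K27ac 1988 and 2127 bp (0.74 ± 0.13, limma adjusted p = 0.0141).

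The H3K27ac-only regions were led by sites that held no TSS, most of them within 5 kb of one. The highest-scoring lay in an intron of Cit at chr5:115917332-115921575, 4066 bp from the nearest TSS, with scores of 783 and 859 over 4244 and 3679 bp. The next lay between genes at chr6:88913804-88917088, 2620 bp from Gm44178, with scores of 793 and 646. An intronic site of Fbln2, a matrix protein gene, at chr6:91258516-91262566 (747 and 638) lay 2112 bp from the nearest TSS. An intergenic site 49077 bp from Syf2 at chr4:134980087-134984611 (629 and 572) and an intronic site 3478 bp from the TSS of Agmat at chr4:141750150-141753410 (676 and 571) followed. All 5 had H3K27ac in all 8 earlier lists. H3K4me3 was in both 0 h lists at the Cit site, in 1 at the Agmat site, and in none at the others.

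Most H3K27ac-only regions without any TSS had a nearest gene that carried H3K4me3. Of the 4667 H3K27ac-only regions without any TSS, 3277 (70.2%, 68.9 to 71.5%) had as nearest protein-coding gene a gene with H3K4me3 in both replicates within 1 kb of its TSS, against 9552 of all 21866 genes (43.7%). The first is a share of regions, in which a gene can count more than once, and the second a share of genes. The regions were nearest to 3138 genes, and 64 genes had 5 or more. Cited2, a CBP/p300-binding regulator, had 11, Rapgef2 and Zfp36l1, an mRNA decay factor, 10 each, and Ube2e3 9. Kit had 8, while its promoter had H3K4me3 alone. The distances were wide, with a median of 18872 bp from the region to the TSS, and nearest does not mean regulated. The counts per gene had no limit of distance. Most regions counted for Cited2, Rapgef2, Zfp36l1, and Kit lay more than 50 kb from the TSS. Those within 50 kb lay at 45927 bp (Cited2), 33002 bp (Zfp36l1), and 15051 and 24761 bp (Rapgef2), with those of Kit given below.

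Within 50 kb, 2 of the H3K27ac-only regions had Kit as nearest gene. The region at chr5:75537624-75539980, 34936 bp from the TSS, had 2166 and 2194 bp of H3K27ac and was in both lists at 0 h. The region at chr5:75621405-75627231, inside the gene and 46450 bp from the TSS, had 5827 and 3344 bp and a GATA motif in its central window. At Alas2 an intronic region at chrX:150563365-150565773, 15906 bp from the TSS, had 2306 and 2214 bp of H3K27ac. Of 27 erythroid transcription factor genes, 8 (29.6%) had an H3K27ac-only region within 50 kb, against 10 of 24 progenitor and mast cell genes (41.7%), 8 of 24 membrane genes (33.3%), 1 of 50 developmental transcription factors, and 12.4% of all genes. Myb, Runx1, and Cbfa2t3 had 2 such regions each, Tcf12 3, and Sox6, which had no promoter peak, 4.

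Most regions were in the same class at 0 h. Of the regions with both marks at 24 h, 96.4% (96.0 to 96.7%) had both at 0 h. Of the H3K4me3-only regions, 1327 of 1948 (68.1%) had H3K4me3 only at 0 h and 450 (23.1%) had both marks. Of the H3K27ac-only regions, 63.9% (62.6 to 65.2%) had H3K27ac only at 0 h, 10.8% (9.95 to 11.6%) had both, and 24.4% (23.3 to 25.6%) had neither mark in both replicates. Regions were chosen by their marks at 24 h, so at other times the share of a mark that was required is lower, and that of a mark that was required to be missing is higher, by the choice alone, and no test was made.

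The values at each time are given as a description, since the choice of regions at 24 h can itself set their order. In the H3K27ac-only regions, the share with H3K4me3 in both lists was 11.7% at 0 h, then 7.54% (2 h), 6.63% (6 h), and 4.34% (12 h), while that with H3K27ac in both lists was 74.7%, 78.2%, 83.7%, and 84.4%. In the H3K4me3-only regions, the share with H3K27ac in both lists was 23.6%, 19.7%, 20.7%, and 17.3% at the same times. In those of 4 kb or more it was in 38.5%, 27.7%, 25.7%, and 20.4%.

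**Figure D5:**
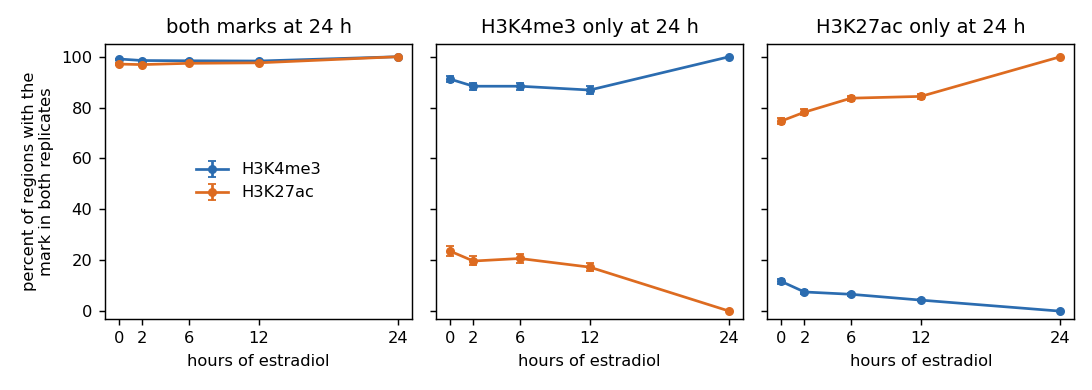
Percent of the regions of each 24 h class (panels) that had H3K4me3 (blue) or H3K27ac (orange) in both replicates at each time (x axis, hours of estradiol; points with 95% Wilson intervals). Regions with both marks stay at 96.9% or more for each mark at every time, and in the H3K27ac-only class H3K4me3 goes from 11.7% at 0 h to 4.34% at 12 h; the values at 24 h follow from the choice of regions.

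The 722 H3K27ac-only regions in no histone list at 0 h were shorter and weaker than those with H3K27ac in both lists and H3K4me3 in none at 0 h (2889 regions). Their median length was 1758 bp against 2286 bp, and their median H3K27ac score percentiles were 17.5 and 15.6 against 33.9 and 31.3. A GATA motif was found in 61.1% (57.5 to 64.6%) against 57.6% (55.8 to 59.4%), intervals that overlap, and an AP-1 motif in 8.17% (6.39 to 10.4%) against 12.2% (11.0 to 13.4%). Among genes with such regions within 50 kb, Rere had 4, and Dpf3, Fbxw7, a ubiquitin ligase subunit, and Rai1 had 3 each. These genes were singled out after their counts were seen.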

How the data were processed

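ChIP-seq reads were processed by the authors, who aligned them to mm10 with Bowtie2 at default settings, discarded reads that did not map uniquely, and ran MACS with its model step off. MACS version, control, and threshold are not given in the sources used here, and these steps are stated for the histone marks alone. The labels and the methods differ on the H3K4me3 antibody and the library kit, and the extract protocol in the labels names a human build, although the positions fit the mouse genome. The deposited lists hold peak positions and a score per peak. What the score is was not stated. Its lowest value at 24 h, 50.0, fits minus 10 times log10 of the p-value, so it was taken to be the score of the caller. The lists hold no read counts.

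Samples were grouped by antibody and hour from their titles, and peaks were used per replicate. Regions were annotated with GENCODE M21 (GRCm38), and sequences came from RefSeq GRCm38.p6. One TSS was taken per protein-coding gene for the promoter windows of 1 kb either side, and 2 gene names of the lists (Ahsp and Hbb-b1) had no match in that annotation. Shares have 95% Wilson intervals. Marks were compared with the exact two-sided permutation test within time points, and covered lengths with limma 3.58.1 (R 4.3.3; trend, Benjamini-Hochberg adjustment over 10288 regions), checked on simulated data. Named regions are the 5 with the longest stretch under all 4 lists, the 5 single-mark regions per mark with the highest lower score percentile and no peak of the other mark, the 5 largest called log2 differences in each direction, and members of the gene lists. A few members of the gene lists are counted but not reported here by name. Sequences are of the leading 2 regions per class. The members, lists, and rules were chosen with earlier results of these data known. Alternatives were strict absence, score and number filters, merging within 500 bp, 50% coverage, autosomes and X, other pseudocounts and windows, centring, all 20 lists, a replicate block, and leaving out each list.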

Additional observations from a re-analysis of the deposited data

How the results depend on the processing

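The counts of regions with both marks, H3K4me3 only, and H3K27ac only became 5480, 3178, and 349 when peaks under the pooled median score were dropped, with a protein-coding TSS in 93.4%, 88.0%, and 9.74% of them. With the same number of top-scoring peaks per list, 80.2% of regions with both marks held a TSS and 2596 regions had H3K27ac only. With 50% coverage required, the TSS shares were 84.0% with both marks and 8.61% with H3K27ac only. Under strict absence 1298 regions had H3K4me3 only. Leaving out each list in turn gave 74.8 to 76.1% (TSS share with both marks) and 43.1 to 52.7% (H3K4me3 only). Alternatives added after the data were seen gave the following. In regions under 4 kb the TSS shares were 73.8%, 36.5%, and 2.81%, and with no peak of the other mark within 5 kb, 1027 regions had H3K4me3 only and 2.86% of H3K27ac-only regions held a TSS.

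The exact permutation tests of marks had the same direction and passed the threshold under every alternative but these. On the 24 h lists alone (2 against 2) the differences were -21.8 percentage points (TSS), 26.5 bp (length), -0.249 (CpG), and 12.8 percentage points (GATA), with adjusted p of 0.444, 0.667, 0.444, and 0.444, which that design cannot bring under the threshold. With the score filter the CpG difference was 0.0121, reversed. With labels exchanged within time point and replicate number (the replicate block), the exact permutation adjusted p was 0.0026 for the TSS, CpG, and GATA differences and 0.00586 for the length. Same-numbered lists deviated in the same direction at 0 to 2 of 5 times. With so few times, these signs cannot show whether same-numbered lists were paired. In limma the replicate block gave 2251 regions with longer H3K27ac and 413 with longer H3K4me3.

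The limma calls with longer H3K27ac and longer H3K4me3 were 561 and 190 with the score filter, and with each list left out ranged from 1018 to 3024 and from 38 to 956. Longer H3K4me3 was called in 1296 regions with centred lists and in 884 with the fit to all 20 lists. Of 90 values for the 10 named regions under the alternatives, 86 kept their direction and an adjusted p under 0.05 and 4 kept the direction alone (Tbc1d31 and Gm44456 in the fit to all 20 lists, and Olfr1368 without either H3K4me3 list). The cause of these changes was not tested.

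At promoters, H3K27ac only was found at 289 of all genes with a window of 5 kb, and at 1, 2, and 3 genes of the erythroid lists with windows of 2 kb, 5 kb, and the TSS base alone. Counting a mark as present where an earlier list had a peak, an alternative also added later, gave 605 genes with H3K4me3 only and 253 with H3K27ac only.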
